A study of Mus musculus with 4 samples.

Results

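The messenger RNA that mouse gastrocnemius muscle held 24 h after a dose of glucocorticoid was compared with that held 3 h after it, to describe which transcripts had come down, which had stayed and which had come back. The comparison used 2 of the 4 Affymetrix MG-U74Av2 arrays of the study and took in every non-control probe set that carries 1 gene symbol, which read 8251 genes. Both arrays held RNA from adrenalectomized mice given 0.1 mg of cortisol intraperitoneally, taken 3 h or 24 h later. The remaining arrays, of intact mice and of adrenalectomized mice without injection, served as baselines. Each array held RNA pooled from the gastrocnemius of 10 mice, and the labels state that the arrays were not replicated, so every difference below sets 1 pool against another and carries no test. The labels give 1 week between surgery and sampling for the uninjected adrenalectomized mice and no interval for the injected ones. The sources used here name no strain, age, sex, vehicle group or time of day, so time after the injection and time of day cannot be told apart.

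Cortisol and the mouse's own corticosterone act through the glucocorticoid receptor, a hormone-dependent transcription factor that raises the transcription of genes with response elements near them and lowers that of others. In skeletal muscle glucocorticoids are known for turning fuel use from glucose towards fat, for restraining growth signalling through mTOR and for favouring protein breakdown. Removal of the adrenal glands takes away the natural hormone, so that an injected dose acts as a pulse. The level of a transcript hours after such a pulse depends both on how long its synthesis stays raised and on how fast the messenger decays, and the arrays measure only their net result.

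The values are MAS 5.0 signals scaled so that the trimmed mean of each array was 500. Signals under 100, the floor, were set to 100 before log2 ratios were taken, and a ratio against a signal under the floor is given as a lower bound ("at least"). The fluidics modules differed between the 4 arrays, so the group, its pool and its module cannot be told apart. Between 63.0% and 64.4% of probe sets reached the floor on each array. Genes that define fast skeletal muscle were bright on all arrays and differed little between the 3 h and 24 h arrays: the fast myosin heavy chain gene Myh4 had a log2 ratio of 0.04 (24 h over 3 h). Precision was limited by the number of arrays, and error could be gauged only from how far probe sets of a gene disagreed. The SD that this disagreement implies for the log2 ratio of a single probe set was 0.31 for 24 h against 3 h, over 924 pairs of probe sets. The difference between a pair spreads more widely than that. The SD holds no variation between mice or pools.

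Of 6229 genes that reached the floor on the 3 h or the 24 h array, 122 (1.96%) were at least 2-fold lower at 24 h than at 3 h and 82 (1.32%) at least 2-fold higher, 204 (3.28%) in all. A further 5504 genes (88.4%) differed by less than 1.5-fold, and the median log2 ratio of all genes was 0.03. At 1.5-fold, 366 genes (5.88%) were lower and 359 (5.76%) higher. By the 2-fold rule 3.03% of genes differed between 3 h and adrenalectomy, 2.33% between 24 h and adrenalectomy and 0.72% between adrenalectomized and intact mice. Large differences ran mainly downward: 41 genes were at least 3-fold lower and 5 at least 3-fold higher. Of the 204 genes, 142 were read above the floor on both arrays (88 lower and 54 higher), and a mean of both signals under 300 was found for 59 of the 122 lower and 59 of the 82 higher genes. Scaling to ribosomal protein probe sets moved the median of all genes to 0.14 and the share of higher genes among those past 2-fold from 40.2% to 50.7%. A second probe set that could be read was present for 20 genes past 2-fold, had the same sign for 15 of them and passed 1.5-fold the same way for 8. Probe sets with a suffix, which marks probes shared with related transcripts or chosen under relaxed rules, read 15 of the lower and 19 of the higher genes. Among genes named below they read Zfp36, Gadd45b, Glul, Klf9, Nfil3, Gpcpd1, Med27, Dab2, Tmem129, Phgdh, Tnnt1, Myh7, Atp2a2, Zbtb16, Junb, Plg, Apoa5, Igkv6-23, Serpina1b and Serpina1e, whose signals may include other transcripts.

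**Figure D1:**
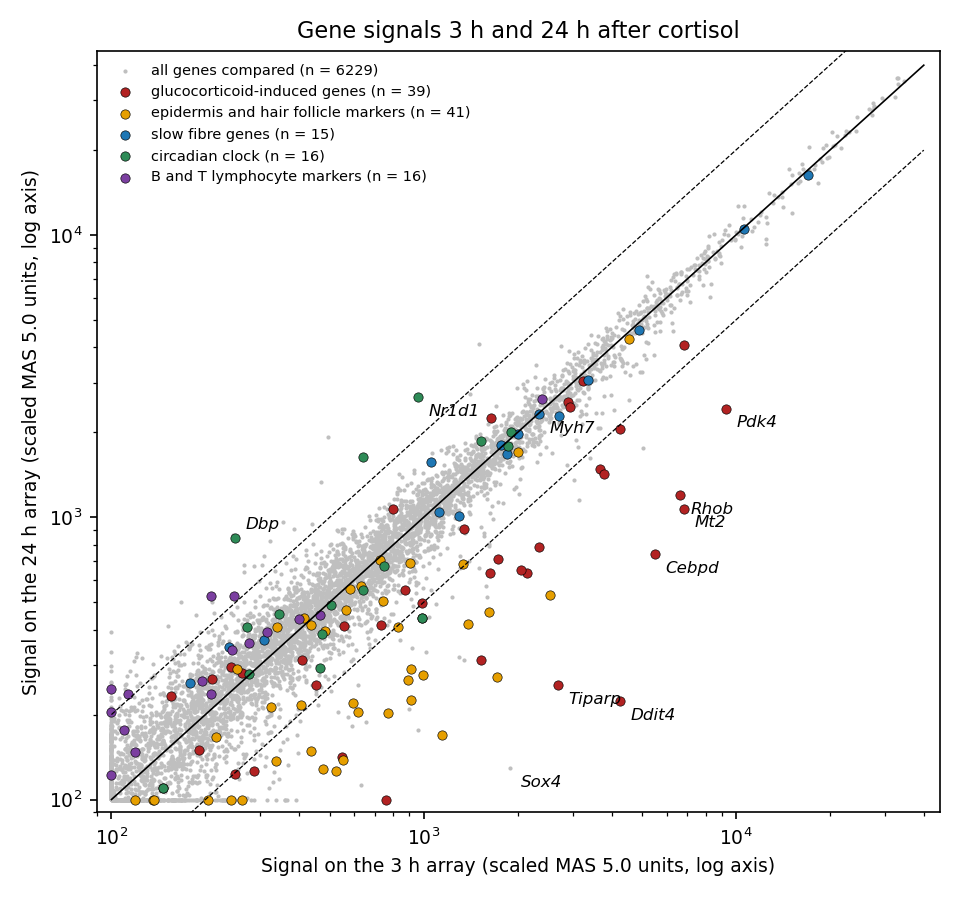
Signals of 6229 genes on the 3 h array (horizontal) and the 24 h array (vertical), in scaled MAS 5.0 units on log axes, with signals below 100 drawn at 100. The solid line marks equal signals and the dashed lines 2-fold differences. Glucocorticoid-induced genes (red) and epidermis and hair genes (orange) lie below the lower dashed line in 20 and 21 cases, the slow fibre genes (blue) lie along the line of equal signals, and Dbp and Nr1d1 lie above the upper dashed line.

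Each gene was then followed from adrenalectomy to 3 h to 24 h. Of the 115 genes (1.86% of 6168) that were at least 2-fold higher at 3 h than in adrenalectomized mice, 75 (65.2%) were at least 2-fold lower again at 24 h. Of these, 67 returned to within 2-fold of the adrenalectomized level (1.06% of the 6347 genes that could be classed), 8 were still at least 2-fold above it (0.126%) and 0 undershot it by 2-fold. A further 18 of the 115 persisted at least 2-fold above adrenalectomized mice without a 2-fold drop (0.284%), and 22 lay between these classes (0.347%). Of the 72 genes (1.17%) at least 2-fold lower at 3 h, 23 rebounded (0.362%), meaning that they were at least 2-fold higher at 24 h than at 3 h and within 2-fold of adrenalectomized mice. Another 23 stayed low (0.362%), 26 lay between (0.41%) and 0 overshot. The share with a 2-fold move back was 65.2% of the raised and 31.9% of the lowered genes. Genes within 2-fold at 3 h that then departed from adrenalectomized mice and from 3 h together numbered 28 late risers (0.441%) and 26 late fallers (0.41%). The classes share their arrays, so a misreading confined to the 3 h array would place a gene among the returned or the rebounded genes.

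The 67 genes that returned (1.06% of all genes classed) included 16 of the 39 compared members of a list of glucocorticoid-induced genes. Signals of a gene are given for the intact array first, then the adrenalectomized array, then 3 h and last 24 h. The median log2 ratio of the 39 was -1.01 for 24 h against 3 h. Of the 39, 20 were at least 2-fold lower (1.96% of all genes were) and 0 were 1.5-fold higher (5.76% of all genes were). The summed signal of all 40 list members on the array was 41922, 41448, 86069 and 35679.7. Of the 39, 33 had a ratio below 0, and the median of the same list for 24 h against adrenalectomized mice was -0.03. The list was drawn up with earlier results of these arrays known, so its direction is a description. Skin and hair markers came down by a similar median between the same arrays, as described further on, and their part in these values was not tested.

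Regulators of growth signalling were prominent among the returned genes. Ddit4, which encodes an inhibitor of mTOR complex 1, read 338, 339, 4250.3 and 223, and was 19.0-fold lower at 24 h than at 3 h, the largest difference of all genes compared. Its 24 h signal lay below both baselines by less than 2-fold. Sesn1, a stress-induced sestrin that also restrains mTOR complex 1, read 716, 828, 2043 and 652, a 3.13-fold difference from 3 h to 24 h. Gadd45g, a stress-response gene that slows the cell cycle, read 816, 580.3, 2146 and 635 (3.38-fold lower). Only the 3 h array was high for these genes, and the other three arrays lay within 2-fold of each other. Cdkn1a, the cell cycle inhibitor p21, moved less by its brighter probe set, with 406, 332, 554 and 411 and a log2 ratio of -0.43, while its other probe set was 2.28-fold lower. Over the list of growth brakes and cell cycle inhibitors 6 of 18 members were at least 1.5-fold lower (5.88% of all genes were), 3 of them at least 2-fold, and 0 were 1.5-fold higher. The antiproliferative gene Btg2 and the stress gene Gadd45b were 1.82-fold and 1.66-fold lower. Foxo3, which drives atrophy genes in muscle, read 541, 524, 874 and 551 and was 1.59-fold lower, and it was the only 1 of 23 atrophy and autophagy genes past 1.5-fold. The gene of myostatin, the secreted brake on muscle growth (Mstn), read 2347, 1986, 2938 and 2469, with a log2 ratio of -0.25.

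Transcription factor genes known as early glucocorticoid targets, and the enzyme gene Tiparp, came down too. Cebpd read 813, 1314, 5503 and 739.5, so that the 24 h array was 7.44-fold below 3 h and 1.78-fold below adrenalectomized mice. Its relative Cebpb read 1730.0, 1793, 3682 and 1483 and was 2.48-fold lower. Both encode C/EBP factors, which act together with the glucocorticoid receptor at many genes. Sox4, a developmental transcription factor gene, read 184, 241, 1895 and 129 and was 14.7-fold lower, and its second probe set was 5.32-fold lower. Tiparp, which encodes an ADP-ribosyltransferase also induced through the aryl hydrocarbon receptor, read 309.6, 173, 2688 and 254, a 10.6-fold drop. Zbtb16, a zinc finger gene used as a marker of glucocorticoid action, read 2325, 2286, 4245 and 2061 and was 2.06-fold lower, and its second probe set, with no suffix, was 1.98-fold lower. Of these 5 genes, only Zbtb16 had been raised by less than 2-fold at 3 h, so it was not classed as returned.

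Genes that oppose inflammation or restrain the hormone's own receptor also came down. Nfkbia, which encodes the inhibitor that holds NF-kB in the cytoplasm, read 779.8, 607, 2339.7 and 782 and was 2.99-fold lower at 24 h than at 3 h, with 2.38-fold for its second probe set. Fkbp5, a co-chaperone that lowers the affinity of the glucocorticoid receptor for its hormone, read 1349, 796, 3771 and 1418. It was 2.66-fold lower than at 3 h, and its 24 h signal was close to intact mice and 1.78-fold above adrenalectomized mice, whose signal was the lowest of the 4. Zfp36, which destabilizes cytokine messengers, read 492, 445, 991 and 499 and lay just inside the 2-fold rule at 1.99-fold lower. Errfi1, an inhibitor of the epidermal growth factor receptor, read 733, 651, 1634 and 635 (2.57-fold lower, and 2.54-fold by its second probe set). The stress kinase gene Map3k6 read 57.3, 49.3, 758 and 53.8, above the floor on the 3 h array alone, and was at least 7.58-fold lower. Rhob, a small GTPase of the endosome, read 1648, 1730.1, 6626 and 1198 and was 5.53-fold lower.

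The metallothionein genes, whose small cysteine-rich proteins bind zinc and copper, showed the same course. Mt2 read 1101, 1047, 6819 and 1072, a 6.36-fold drop to within 1.02-fold of adrenalectomized mice, and Mt1 read 568, 441, 1529 and 313, a 4.88-fold drop. Mt4, the form of stratified epithelia, read 14.5, 25.7, 391 and 26.0, above the floor at 3 h alone. The promoters of Mt1 and Mt2 are shown because glucocorticoids and metals are both known to induce these neighbouring genes. The sequences are the 250 bases before the start of transcription, 5′ to 3′ on the plus strand, from RefSeq on GRCm38.p6. Capitals mark matches to the relaxed glucocorticoid response element GNACANNNTGTNC (Mt1) and to TGCGCNC, a form of the metal response element (Mt2), searched on both strands. Other forms of the metal response element were not searched, so unmarked letters may hold them.
Mt1: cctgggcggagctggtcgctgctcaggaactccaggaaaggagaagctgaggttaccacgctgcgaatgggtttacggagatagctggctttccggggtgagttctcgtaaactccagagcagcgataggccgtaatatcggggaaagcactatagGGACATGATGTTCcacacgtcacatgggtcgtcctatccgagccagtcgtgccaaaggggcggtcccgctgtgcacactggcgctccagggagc
Mt2: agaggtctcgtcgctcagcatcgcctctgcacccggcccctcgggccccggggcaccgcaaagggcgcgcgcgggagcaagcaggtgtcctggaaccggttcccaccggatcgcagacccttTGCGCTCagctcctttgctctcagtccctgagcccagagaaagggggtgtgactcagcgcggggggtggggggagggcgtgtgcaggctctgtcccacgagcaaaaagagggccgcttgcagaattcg
The Mt1 stretch lies at chr8:94178839-94179088 and its match begins 94 bases before the start, and the Mt2 stretch lies at chr8:94172368-94172617 with its match 128 bases before the start. Past the printed stretches, a match to TGCGCNC also began at base 21 after the Mt1 start and at base 5 after the Mt2 start. Windows of 300 bases (250 before to 50 after a start) held the relaxed element in 156 of 32851 cases (0.475%), and in 4 of the 69 windows found for 58 of the 67 returned genes (5.8%). The searched form of the metal response element was in 15.4% of all windows and in 23.2% of those of returned genes. Among the 25 windows of rebounded genes that form was in 36% and the relaxed glucocorticoid element in 0. A match describes letters and is no evidence of binding.

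Sgk1 and Per1 are shown for the same purpose, as induced genes of a lower amplitude. Sgk1, the serum- and glucocorticoid-regulated kinase that acts beside Akt, read 4508, 4396, 6803 and 4064 and was 1.67-fold lower at 24 h. Per1, the clock repressor that glucocorticoids induce directly, read 251, 306, 986 and 438, which was 2.25-fold lower than at 3 h with 19.4% of the 3 h increment left. The stretch of Sgk1 lies at chr10:21993640-21993889 before 1 of its 6 annotated starts, and that of Per1 at chr11:69098699-69098948 before 1 of its 2, both on the plus strand of GRCm38.p6. Capitals mark the palindromic glucocorticoid response element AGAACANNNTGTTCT (Sgk1) and the E-box CACGTG, the hexamer that clock factors bind (Sgk1 and Per1).
Sgk1: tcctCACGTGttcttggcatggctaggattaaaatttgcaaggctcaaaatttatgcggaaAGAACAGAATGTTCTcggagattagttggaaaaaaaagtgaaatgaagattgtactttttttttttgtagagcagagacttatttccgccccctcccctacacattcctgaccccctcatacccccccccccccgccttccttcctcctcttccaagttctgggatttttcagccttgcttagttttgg
Per1: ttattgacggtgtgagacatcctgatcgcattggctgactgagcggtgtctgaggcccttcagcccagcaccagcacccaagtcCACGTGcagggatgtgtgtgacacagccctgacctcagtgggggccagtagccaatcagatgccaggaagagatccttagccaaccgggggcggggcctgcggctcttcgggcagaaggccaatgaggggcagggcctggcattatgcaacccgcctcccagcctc
The palindromic element, which contains the relaxed one, began 189 bases before the Sgk1 start and was present in 3 of all 32851 windows (0.00913%). It was in 0 of the 69 windows of returned genes and in 0 of the 25 windows of rebounded genes. Neither the palindromic nor the relaxed element was in the other Sgk1 windows or those of Per1, Mt2, Fkbp5, Ddit4, Tiparp, Nfkbia and Tsc22d3. The hexamer AGAACA of the palindromic element alone was in 19% of all windows, in 8.7% of the windows of returned genes and in 24% of those of the rebounded genes. The E-box began 166 bases before the Per1 start and was present in 7.15% of all windows, 10.1% of the windows of returned genes and 0 of the 25 windows found for 18 of the 23 rebounded genes.

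**Figure D2:**
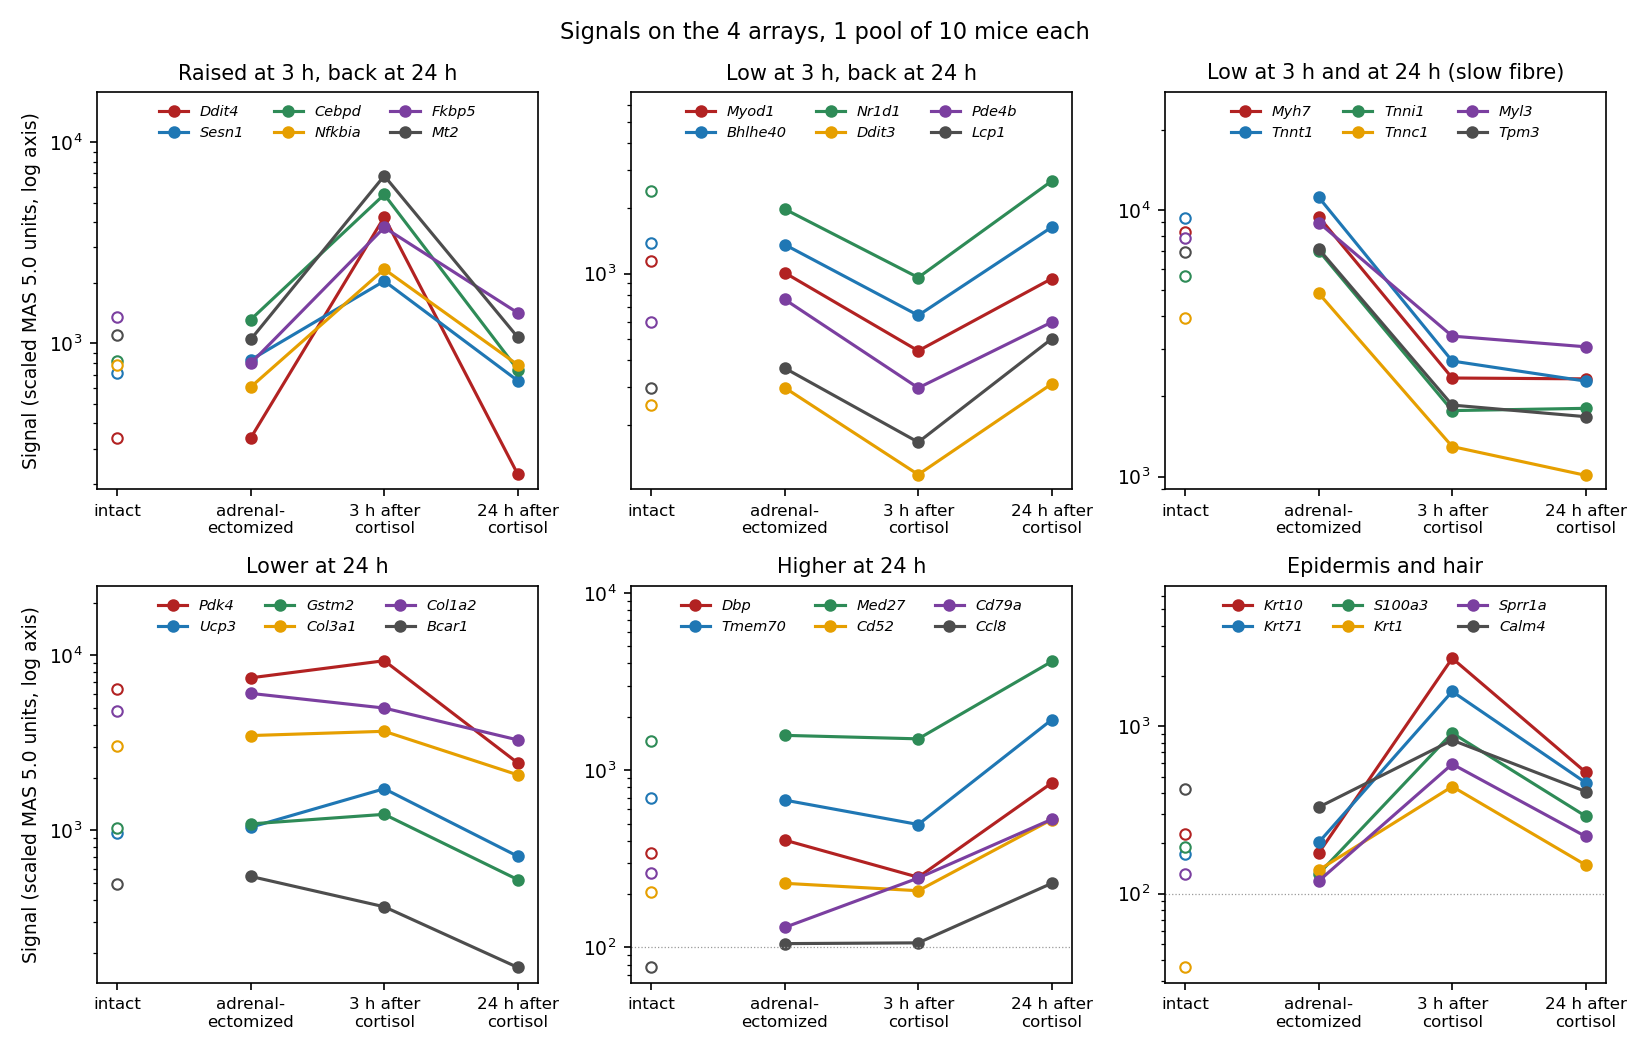
Signals (scaled MAS 5.0 units, log axis) of 36 genes on the 4 arrays, 1 pool of 10 mice per point. Open points are intact mice, and lines join adrenalectomized mice, 3 h and 24 h after cortisol; the dotted line is the floor of 100. In the upper row Ddit4, Mt2 and the other returned genes peak at 3 h, Nr1d1 and the other rebounded genes dip at 3 h, and slow fibre genes such as Myh7 are low at both times. In the lower row Pdk4 falls to 2425 at 24 h, Dbp reaches 847 at 24 h, and Krt10 drops from 2549 at 3 h to 531 at 24 h.

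Several genes known as glucocorticoid targets, and the receptor gene, had not been raised 1.5-fold at 3 h by their brightest probe sets and differed by less than 1.5-fold between the times. Glul, which encodes glutamine synthetase, read 887, 815, 799 and 1073, with a log2 ratio of 0.42 for 24 h against 3 h. Its second probe set, which carries no suffix, read 281, 311, 477 and 344, so by that set Glul was higher at 3 h than in adrenalectomized mice and lower at 24 h (-0.47). Klf9, a Kruppel-like factor gene, read 3019, 2952, 2893 and 2566, with -0.17 and, for the second set, 0.39. Dusp1, a phosphatase that switches off MAP kinases, read 2789.9, 2654, 3243 and 3044, a log2 ratio of -0.09. Tsc22d3, the glucocorticoid-induced leucine zipper, went the other way, with 177, 256, 155 and 232 and a log2 ratio of 0.58. Bcl6, a transcriptional repressor gene, read 2155, 1935, 1641 and 2257 (0.46). The receptor gene itself, Nr3c1, read 275, 311, 197 and 260.2 and was 1.32-fold higher at 24 h than at 3 h. None of these 6 genes passed 1.5-fold between 3 h and 24 h, with Tsc22d3 just inside that limit.

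How completely the raised genes had come down was expressed as the share of the 3 h increment left at 24 h, that is the 24 h signal minus the adrenalectomized signal over the 3 h signal minus the adrenalectomized signal. It was computed for the 76 raised genes that reached the floor on all 3 arrays, and its median was 9.95%, with values from -37.1% to 128%. The 16 genes of the glucocorticoid-induced list had a median of -0.38% and values from -16.4% to 20.9%, and 9 of the 16 were below 0. The highest shares on that list belonged to Fkbp5 at 20.9%, Per1 at 19.4%, Nfkbia at 10.1% and Zfp36 at 9.94%. Members of the epidermis and hair list had a median of 15.9% over 13 genes, and the 47 genes of neither list had one of 15%, with 15 of the 47 at 50% or more. The 47 included keratin genes that the list does not hold, such as Krt72 at 90.8%, Krt33b at 36.9% and Krt32 at 27.0%. All 4 genes at 100% or more were outside both lists. With 2 times after the injection no half-life was computed.

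**Figure D3:**
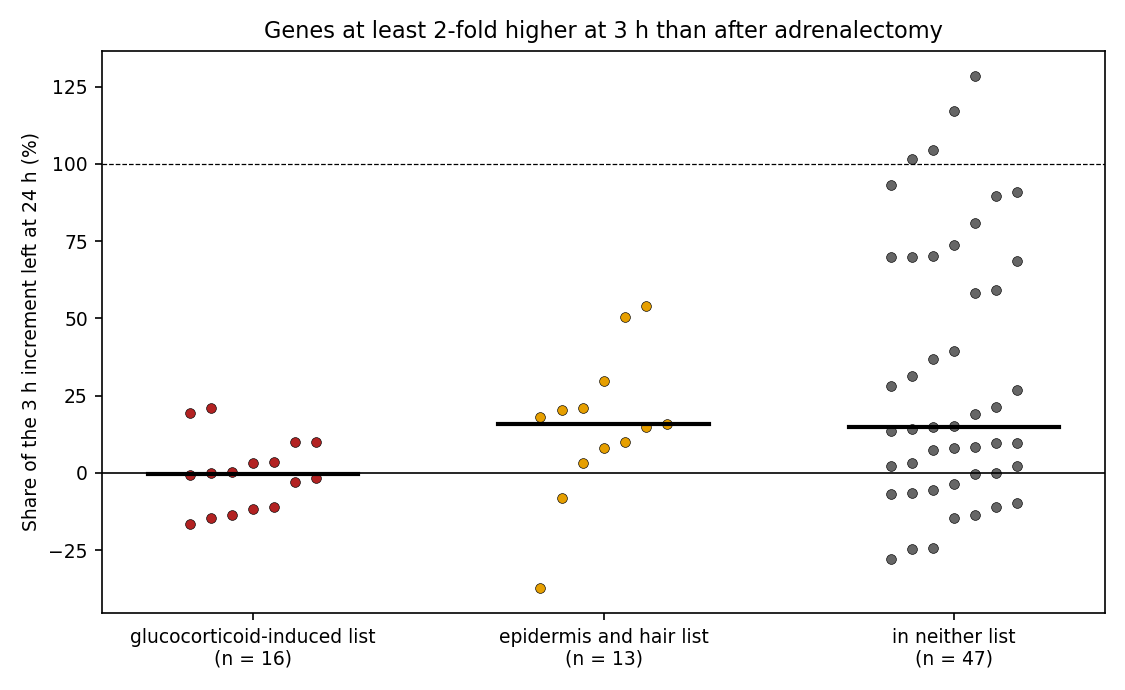
Share of the 3 h increment over adrenalectomized mice that was left at 24 h (percent), for the 76 genes at least 2-fold higher at 3 h and above the floor on all 3 arrays. Points are genes and bars are medians: -0.38% for 16 glucocorticoid-induced genes, 15.9% for 13 epidermis and hair genes and 15% for 47 genes of neither list, of which 4 lie at 100% or more. The 47 include keratin genes that the epidermis and hair list does not hold.

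Genes of fuel use included some of the brightest that dropped. Pdk4, the kinase that switches off pyruvate dehydrogenase and so spares glucose, read 6455, 7443, 9322 and 2425. It was 3.84-fold lower at 24 h than at 3 h and 3.07-fold lower than in adrenalectomized mice, after a log2 ratio of only 0.32 at 3 h, so the 24 h array was the low one of the 4. Ucp3, a mitochondrial carrier of fat-burning muscle, read 969, 1041, 1728 and 709.9 and was 2.43-fold lower. Ppara, the nuclear receptor that switches on fat oxidation, read 426, 367, 841 and 367, a 2.29-fold drop that ended at the adrenalectomized level. These were the 3 of 29 genes of fatty acid uptake and oxidation past 1.5-fold, beside 5.88% of all genes lower and 5.76% higher. All 3 were also at least 2-fold lower, next to 1.96% of all genes. The median of the list was 0.00, and it turned negative under median scaling, so the 3 genes are not read as a change of the whole list. The lipid droplet gene Plin4 read 1274, 1164, 3148 and 1155 and was 2.72-fold lower. Among 26 glycolysis and glycogen genes, Ppp1r3c, which targets a phosphatase to glycogen, read 2523, 2399, 5029 and 1754 and was 2.87-fold lower, and the glucose transporter gene Slc2a1 read 119, 208, 159 and 97.8 (at least 1.59-fold lower). Fbp2, the muscle fructose bisphosphatase, was 1.82-fold higher, with 671, 595, 391 and 713. The median of that list was 0.03, as over all genes.

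Some amino acid transporter genes came down while the list of amino acid metabolism went both ways. Slc7a8, a carrier of large neutral amino acids, read 132, 144, 548 and 141 and was 3.88-fold lower, and Slc1a4, a carrier of small neutral ones, read 45.6, 62.0, 248 and 93.5, above the floor at 3 h alone, and was at least 2.48-fold lower. Slc7a2, a carrier of cationic amino acids, was 1.53-fold higher, and Phgdh, the first enzyme of serine synthesis, was at least 1.77-fold higher. The median over 25 members was 0.18, and became -0.01 without probe sets that carry a suffix for shared or relaxed probes. Further returned genes outside the lists included Pag1, an adaptor that restrains Src kinases, with 137, 101, 628 and 113 (5.57-fold lower), whose second probe set was below the floor on all arrays. Anxa8, a membrane-binding annexin gene, read 97.2, 138, 590.4 and 182 (3.24-fold lower). Bcl2l1, which protects cells from apoptosis, read 544, 571, 1502 and 661 and was 2.27-fold lower.

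Immediate early genes, which respond to many stimuli within minutes, were mostly lower at 24 h than at 3 h. Their median was -0.33 over 21 members, 9 were at least 1.5-fold lower (5.88% of all genes were), 2 of these at least 2-fold, and 1 was 1.5-fold higher. Ccn2, the connective tissue growth factor, read 448, 416, 1019 and 334 and was 3.05-fold lower. Its relative Ccn1 read 174, 202, 235 and 98.3 and was at least 2.35-fold lower, below both baselines. Fos read 196, 223, 254 and 135 (1.88-fold lower), and the nuclear receptor gene Nr4a1 read 2022, 1785, 3628 and 2067 (1.75-fold lower). Ier3, a survival gene, was the member that was higher, with 348, 406, 288 and 483 (1.67-fold). Egr1, Jun and Junb had log2 ratios of 0.17, -0.17 and -0.03.

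Few raised genes kept their 3 h level, and for many of these the adrenalectomized array was the low one. Ada, adenosine deaminase of purine breakdown, read 469.8, 218, 606 and 672, so that 3 h and 24 h were both above intact mice and the adrenalectomized array stood below it. A dimmer probe set of Ada, which carries a suffix, read 110, 121, 129 and 162, with no dip after adrenalectomy and little rise at 3 h. Gpcpd1, a phosphodiesterase of choline lipids, read 2295, 1191, 2627 and 2692, and the 24 h signal was 2.26-fold above adrenalectomized mice and 1.17-fold above intact mice. Cbl, a ubiquitin ligase of growth factor receptors, read 271, 138, 309.8 and 292. Lrg1, a secreted glycoprotein of acute inflammation, read 693, 528, 1068 and 1076 and kept 101% of its increment. Of the 18 persisting genes, 8 were at least 2-fold lower in adrenalectomized than in intact mice and 13 were within 2-fold of intact mice at 24 h. The actin-binding gene Dbnl (331, 121, 319 and 306) and Tex2 (382, 112, 295 and 346) were among the 8, which for them makes the adrenalectomized array the only low one. Traip, a ubiquitin ligase gene, with 77.5, 102, 352 and 276, and Ly6d, a surface protein of epithelia and lymphocytes, with 171, 161, 489.5 and 353, were higher at both times than on both baselines. The immunoglobulin light chain gene Igkv6-23 read 411, 69.7, 468 and 1332 and was the only persisting gene that was a further 2-fold higher at 24 h than at 3 h; its probe set carries a suffix, so other light chain messengers may add to it.

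Among genes lowered at 3 h, Myod1 and genes of the clock came back. Myod1, the transcription factor that commits cells to muscle, read 1141, 1008, 440.1 and 947 and was 2.15-fold higher at 24 h than at 3 h, with the 24 h level within 1.5-fold of both baselines. Ddit3, a transcription factor gene of endoplasmic reticulum stress, read 247, 298, 118 and 310.0 (2.62-fold higher). Pde4b, a phosphodiesterase that breaks down cyclic AMP, read 600.2, 759, 297 and 597 (2.01-fold). Lcp1, the plastin of white blood cells, read 298, 366, 167 and 500.2 (3.00-fold). Lpar1, a receptor of lysophosphatidic acid, read 244, 317, 111 and 255 (2.31-fold), and Ccne1, the cyclin of entry into DNA synthesis, read 271, 272, 111 and 257 (2.31-fold). On each of these 6 genes the 3 h array was the lowest of the 4. Dab2, an endocytic adaptor, with 522, 729, 267 and 679.8, and St8sia4, which adds polysialic acid to cell surface proteins, with 311, 299, 125 and 317, had the same shape. Tmem129, a ubiquitin ligase of the endoplasmic reticulum, had the largest ratio among members of the class above the floor on both arrays (3.55-fold). Its second probe set, which carries no suffix, read 282, 325 and 439 from adrenalectomized mice on, with no dip at 3 h. The sialyltransferase gene St3gal4 was at least 2.98-fold higher and the transporter gene Slc6a18 at least 3.34-fold.

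Circadian clock genes went both ways. Of 16 members, 3 were at least 2-fold higher at 24 h than at 3 h (1.32% of all genes were) and 1 at least 2-fold lower (1.96%). The median of the list was -0.01, and it was above 0 when arrays were scaled to ribosomal proteins. Nr1d1, which encodes the repressor REV-ERB alpha, read 2396, 1981, 958 and 2670.2, a 2.79-fold difference from 3 h to 24 h. Bhlhe40, a repressor that competes at E-boxes, read 1383, 1359, 641 and 1636 (2.55-fold higher). Dbp, an output factor of the clock, read 340.4, 403, 249 and 847 and was 3.41-fold higher than at 3 h and 2.10-fold higher than in adrenalectomized mice. Cry2, a repressor of the core loop, was 1.51-fold higher. Per1 was lower, as given above, and so was Nfil3, which represses at the sites where Dbp activates, with 400.0, 279, 465 and 292 (1.59-fold). The second probe set of Nfil3 read 293, 236, 676 and 183, a 3.70-fold drop. The core activator genes Clock and Arntl read 269, 280.5, 275 and 279 and 553, 438, 473 and 385, log2 ratios of 0.02 and -0.30. Since Dbp and Nr1d1 are known to cycle over the day and the times of sampling were not given, their course after the hormone was not tested apart from time of day.

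Genes of slow muscle fibres were low on the 3 h array and equally low on the 24 h array. Their summed signal over 15 members was 96862, 105053, 50836 and 49134, and the median log2 ratio was -1.41 for 3 h and -1.55 for 24 h, each against adrenalectomized mice. For 24 h against 3 h the median was -0.03, which became 0.08 when arrays were scaled to ribosomal proteins, and 0 of 15 passed 1.5-fold by their brightest probe sets. The slow myosin heavy chain gene Myh7 read 8238, 9419.7, 2342 and 2325, a log2 ratio of -0.01 between the times, and the slow regulatory light chain gene Myl2 read 12949, 13850.2, 4890.2 and 4627 (-0.08). The slow troponin genes Tnnt1, Tnni1 and Tnnc1 had ratios of -0.25, 0.03 and -0.36, but 0.46 for a second probe set of Tnnt1 without a suffix, which read 495 at 3 h and 681 at 24 h. Atp2a2, the calcium pump of slow and cardiac muscle, read 3971, 4545, 1119 and 1045 (-0.10), and the slow tropomyosin gene Tpm3 read 6936, 7136, 1854 and 1677 (-0.14). The 8 slow fibre genes that were at least 2-fold low at 3 h all belonged to the 23 genes that stayed low. The baselines were thus high and both injected pools low. The carbonic anhydrase gene Car3 of the same list differed less, with 16761, 17911, 17062 and 16265. In muscle pools fewer fibres of a type and less RNA per fibre cannot be told apart. The median of 17 fast fibre genes was 0.06, and 0 of them passed 1.5-fold.

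Some liver genes and a few regulators were among the other genes that stayed low. Albumin messenger (Alb), the main product of liver cells, read 956, 686, 282 and 218, a log2 ratio of -0.37 for 24 h against 3 h and -1.65 against adrenalectomized mice. Serpina1e, a protease inhibitor of the liver, read 874, 658, 235 and 196, and Serpina1b read 698, 507, 207 and 105. The probe sets of both carry suffixes and their family members are near copies, so their values are uncertain as single genes. The median of 22 hepatocyte markers was -0.10, which became 0.04 with ribosomal protein scaling and also without suffixed probe sets, and 13 of the 40 on the array, Apob and Fabp1 among them, were below the floor on all arrays. The list went both ways between the times, with 3 members at least 1.5-fold lower and 3 higher, next to 5.88% and 5.76% of all genes. The higher ones were the kininogen gene Kng1 (at least 2.86-fold), the plasminogen gene Plg (2.22-fold) and the apolipoprotein gene Apoa5 (at least 1.58-fold). The transcription factor gene Zbtb17 read 379, 561, 134 and 139 and had a log2 ratio of 0.05 between the times. Lef1, a factor of Wnt signalling, read 185, 457, 113 and 117 by its brighter probe set. By that set it was 2.47-fold higher in adrenalectomized than in intact mice, as 5 more of the 23 were by at least 2-fold, so that for them the adrenalectomized array was the high one. The second probe set of Lef1, which carries a suffix, read 36.0, 36.7, 107 and 137. It was under the floor on both baselines and showed no fall at 3 h.

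Late risers, which were within 2-fold of the adrenalectomized level at 3 h and at least 2-fold above it and above 3 h at 24 h, included several lymphocyte genes. Cd79a, a signalling chain of the B cell receptor, read 262, 129.6, 246 and 528, which was 2.15-fold above 3 h and 4.08-fold above adrenalectomized mice. Cd52, a surface glycoprotein of lymphocytes, read 206, 229.9, 209 and 526 (2.52-fold above 3 h). Blk, a kinase of B cells, read 125, 90.6, 113 and 237 (2.10-fold), and Ltb, a cytokine gene of lymphocytes, read 195, 34.1, 40.2 and 247 and was at least 2.47-fold higher. Over the whole lymphocyte list the median was 0.40, 15 of the 16 members compared had a ratio above 0, and 5 were at least 2-fold higher (1.32% of all genes were). All 16 reached the floor at 24 h and 13 of them at 3 h. Members under the floor at 3 h, such as Ltb, were compared only through their 24 h signal, so their ratio could not fall below 0. Its summed signal was 5684, 4842, 5744 and 7650.3, and the number of its 24 members on the array that reached the floor was 14, 11, 13 and 16. The T cell receptor genes Cd3d, Cd3e and Cd3g and the coreceptor genes Cd8a and Cd8b1 were below the floor on all 4 arrays. The 24 h array was thus the highest of the 4 for this list, also above intact mice. For 19 macrophage markers the median was 0.21, with 0 higher and 2 lower by 1.5-fold, next to 5.76% and 5.88% of all genes. For 7 neutrophil markers the median was 0.26.

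Some genes of the interferon response and of inflammation were higher at 24 h than at 3 h. For 20 genes of the interferon response and antigen presentation the median was 0.23, with 6 at least 1.5-fold higher (5.76% of all genes were) and 2 lower (5.88%). The immunoproteasome gene Psmb9 read 158, 165, 124 and 259 and was 2.09-fold higher, although with a floor of 200 its log2 ratio was 0.37. The interferon-induced GTPase genes Iigp1 (535, 615, 363 and 689), Gbp3 (363, 485, 313 and 562) and Gbp2 (224, 268, 168 and 299) dipped at 3 h and were 1.90-fold, 1.79-fold and 1.78-fold higher at 24 h. Ifi35 and Irf9, which belong to the same response, went the other way and were 1.77-fold and 1.59-fold lower. For 11 inflammatory mediators the median was 0.26, and 3 were at least 1.5-fold higher, next to 5.76% of all genes. The chemokine gene Ccl8 read 77.0, 105, 106 and 229.9 (2.17-fold higher), and Cxcl12, a chemokine that retains blood stem cells, read 936, 1062, 667 and 1009 (1.51-fold higher). The 24 h signals of Iigp1, Gbp2 and Cxcl12 lay within 1.5-fold of both baselines. That of Gbp3 was 1.55-fold above intact and 1.16-fold above adrenalectomized mice, and those of Psmb9 and Ccl8 were more than 1.5-fold above both.

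Other genes that were higher at 24 h had varied functions. Tmem70, an assembly factor of the mitochondrial ATP synthase, read 694, 678, 494 and 1927 and had the largest ratio of genes above the floor on both arrays, 3.90-fold. Med27, a subunit of the Mediator complex, read 1459, 1572, 1502 and 4107 (2.73-fold), by a suffixed probe set. Avpr2, a vasopressin receptor gene, read 185, 134, 114 and 285 (2.49-fold). Otub1, a deubiquitinating enzyme, read 455, 483, 355 and 962 and was 2.71-fold above 3 h but only just under 2-fold above adrenalectomized mice. Spry4, an inhibitor of growth factor signalling, read 298, 227, 151 and 412 (2.72-fold). The actin-binding gene Pfn1 was at least 3.92-fold and the liver gene Kng1 at least 2.86-fold higher, both from a 3 h signal under the floor.

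Late fallers, at least 2-fold below both adrenalectomized mice and 3 h, took in Pdk4 and Ccn1 and genes of varied function. Gstm2, a glutathione transferase of detoxification, read 1035, 1087, 1234 and 522 and was 2.36-fold lower than at 3 h, but its second probe set had a log2 ratio of 0.07. Bcar1, an adhesion adaptor, read 492, 545, 365 and 164, and was 2.22-fold lower than at 3 h and 3.31-fold lower than in adrenalectomized mice. Rab3a, a GTPase of vesicle release, read 627, 591, 355 and 160.3 and was 2.22-fold lower than at 3 h. Acsf3, a mitochondrial malonate enzyme, read 621, 453, 459 and 216 (2.13-fold). Igfals, which binds insulin-like growth factor in blood, read 374, 273, 217 and 107 (2.04-fold). Notch1, a receptor of cell fate decisions, read 251, 254, 361 and 69.6 and was at least 3.61-fold lower, but its second probe set read 143 at 3 h and 138 at 24 h, a log2 ratio of -0.05. By the probe sets first given for these genes the 24 h array was the lowest of the 4.

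Some collagen and endothelial genes were lower at 24 h than at 3 h, and a few of each list were higher. Of 41 extracellular matrix genes, 7 were at least 1.5-fold lower than at 3 h (5.88% of all genes were) and 2 higher, a share near the 5.76% of all genes. Their median was -0.11 against 3 h and -0.38 against adrenalectomized mice. The summed signal of all 42 list members on the array was 77656, 90787, 77965 and 67096. The fibrillar collagen genes Col3a1 and Col1a2 read 3048, 3480.1, 3681 and 2074 and 4811, 6063, 4998 and 3285, which was 1.77-fold and 1.52-fold lower. A further probe set of Col3a1 read 366 at 3 h and 183 at 24 h, while the second set of Col1a2 had a log2 ratio of 0.16. Col18a1, a collagen of basement membranes, was 1.75-fold lower, and Postn, a matrix protein of repair, 1.63-fold. The laminin gene Lamb2 and the protease inhibitor gene Timp1 were 1.82-fold and 1.55-fold higher. For 15 endothelial markers the median was -0.12, with 5 lower and 2 higher by 1.5-fold, next to 5.88% and 5.76% of all genes. Sox17, a transcription factor of arteries, read 407, 614, 1056 and 554 and was 1.91-fold lower. Its second probe set read 122, 86.7, 368 and 101, a 3.64-fold drop. Kdr, the main receptor of vascular endothelial growth factor, read 319, 406, 204 and 392 and was 1.92-fold higher. Flt1, the other receptor of that factor, was 1.80-fold lower, but its second probe set had a log2 ratio of 0.08. Both medians came to -0.01 under scaling to ribosomal protein probe sets.

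Genes of epidermis and hair were high on the 3 h array and lower at 24 h. Of 54 such genes on the array, 27, 27, 41 and 35 reached the floor, and their summed signal was 14362, 15115, 33749 and 18068. Among 41 compared, 21 were at least 2-fold lower at 24 h than at 3 h, 0 were 1.5-fold higher and the median was -1.02, next to 1.96% of all genes that were 2-fold lower. All 41 reached the floor at 3 h and 35 of them at 24 h. Members under the floor at 24 h were compared only through their 3 h signal, so their ratio could not rise above 0. Krt10, the keratin of differentiating epidermis, read 227, 175, 2549 and 531 and was 4.80-fold lower; its second probe set was below the floor throughout. Krt71, a keratin of the hair root sheath, read 172, 202, 1615 and 460.4 (3.51-fold), S100a3, a calcium-binding protein of the hair cuticle, read 190.5, 131, 912 and 290.2 (3.14-fold), and the desmosome gene Dsp read 58.5, 67.4, 1719.9 and 272 (6.32-fold). The 8 genes that had dropped 2-fold but were still 2-fold above adrenalectomized mice all belonged to this list. The hair protein gene Krtap8-1 read 55.9, 4.79, 1147 and 169 (6.78-fold lower), and Flg, the filaggrin of the outer epidermis, read 146, 38.0, 525 and 126 (4.17-fold). The keratin genes of the basal layer, Krt5, Krt14 and Krt15, were below the floor on all 4 arrays. Of the 122 genes at least 2-fold lower at 24 h, 41 were on this list or on that of glucocorticoid-induced genes. The skin list and the glucocorticoid list moved together across these arrays, with 1 pool per time, and the part of skin RNA in the genes of no list was not tested.

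**Figure D4:**
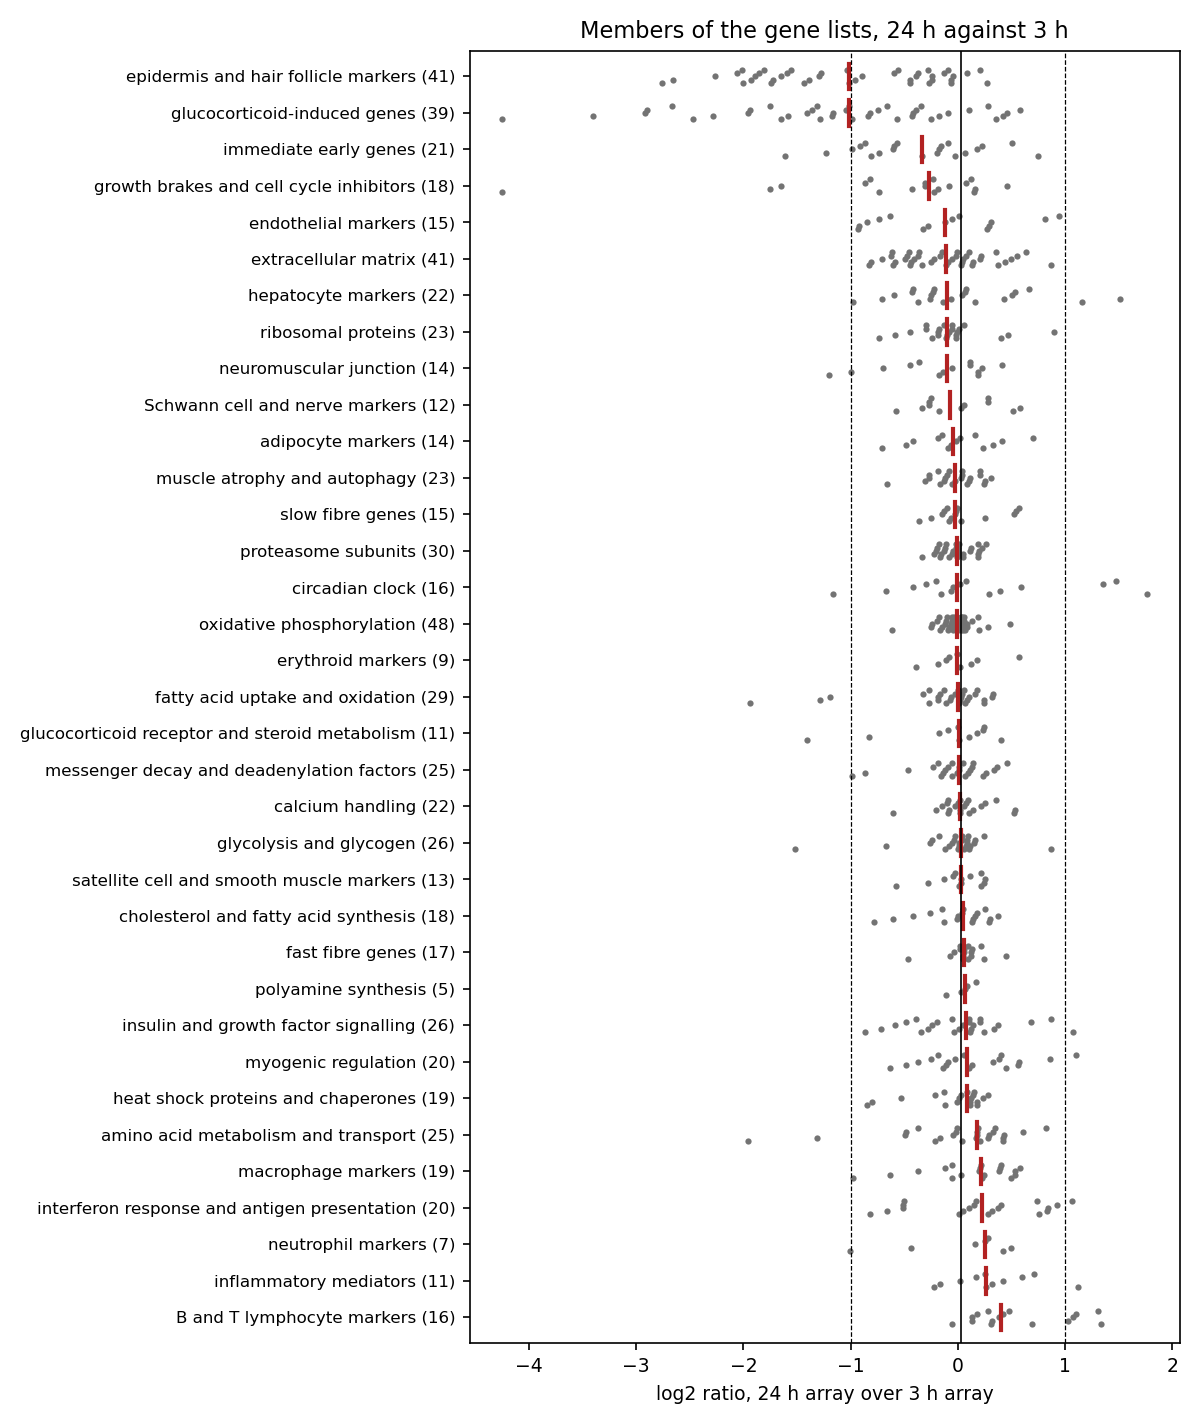
Log2 ratio of 24 h over 3 h (horizontal axis) for the members of 35 gene lists, 1 grey point per gene that reached the floor on either array, with the number of genes in brackets and the list median as a red bar. The solid line is the median of all genes (0.03) and the dashed lines are 2-fold. Epidermis and hair genes (-1.02) and glucocorticoid-induced genes (-1.01) have the lowest medians and B and T lymphocyte markers (0.40) the highest.

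The bulk of the muscle's own programmes showed no common shift between the times. The median was -0.01 for 48 oxidative phosphorylation genes, 1 of them past 1.5-fold, and -0.01 for 30 proteasome subunits, 0 of them past it; both were above 0 when arrays were scaled to ribosomal proteins. For 23 ribosomal protein genes the median was -0.10, and 18 had a ratio below 0. Medians of 0.01 were found for messenger decay factors and for the receptor and steroid metabolism list, 0.02 for calcium handling, 0.03 for satellite cell and smooth muscle markers and 0.04 for cholesterol and fatty acid synthesis; all but the last were below 0 under median scaling. Adipocyte, erythroid and Schwann cell markers had medians of -0.04, -0.01 and -0.07, of which the first 2 were above 0 with ribosomal protein scaling, and the Schwann cell median ran from -0.23 to 0.28 over the alternatives. Medians of 0.06 and of 0.08 were found for polyamine synthesis and for each of myogenic regulation, insulin and growth factor signalling, and chaperones. For 14 genes of the neuromuscular junction the median was -0.10, which became positive under that scaling, and 3 were at least 1.5-fold lower, next to 5.88% of all genes. Among them Chrng, the fetal subunit of the acetylcholine receptor, read 194, 64.6, 230.5 and 84.8 (at least 2.30-fold lower) and Musk, the kinase that builds the synapse, read 51.6, 93.7, 199 and 64.5 (at least 1.99-fold). The inducible heat shock genes Hspa1a and Hspa1b were 1.74-fold and 1.80-fold lower. In growth factor signalling, Igfbp7 read 182, 267, 151 and 317 and was 2.10-fold higher, Socs2, a brake on growth hormone signalling, was 1.83-fold higher, and Igfbp3 was 1.82-fold lower.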

How the data were processed

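Per the labels, RNA of pooled gastrocnemius was extracted with Trizol and put on 1 MG-U74Av2 array per group. Per the labels, the authors made the deposited linear intensity values with MAS 5.0, whose further settings are not known here. Of 12488 probe sets 66 were controls. Each array was scaled to a trimmed mean of 500 over the 12422 others (2% trimmed at each end), floored at 100 and compared as log2 ratios (Python 3.11.15, pandas 2.3.3, NumPy 2.4.6). Probe sets with several symbols (396) or none (1193) were left out, and a gene was its brightest probe set on average. Of 10833 probe sets with 1 symbol, 10817 matched the GRCm38.p6 gene table. With 1 array per group no test or p-value was computed, and genes were counted at 2-fold. The scripts were tested on simulated data.

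The members and the 35 lists were chosen with earlier results of these data known. Genes were named by a rule: the 12 largest ratios and 4 largest bounds each way, up to 10 per time course, up to 4 list members past 1.5-fold each way, and a list of known glucocorticoid and muscle genes. Further list members and returned genes were named after their values were seen. Floors, scalings, probe set rules, fold rules and the intact baseline were varied as alternatives.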

Additional observations from a re-analysis of the deposited data

Results flagged for a closer look

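Probe sets that carry several gene symbols or none were outside the comparison of genes. Of 853 of them that reached the floor at 3 h or 24 h, 13 were higher at 24 h than at 3 h by 2-fold or more and 13 lower. Among 819 compared in the same way between adrenalectomized and intact mice, which received no cortisol, 3 were higher and 6 lower.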

How the results depend on the processing

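The alternatives changed counts near the floor and at the size rule more than list medians. With a floor of 50, 194 genes were higher and 217 lower, 51 persisted, 47 rebounded, 54 stayed low, 71 were late risers and 63 late fallers. With a floor of 200 these numbers were 24, 65, 4, 8, 15, 5 and 3, and the epidermis and hair median was -0.83. When the floor had to be reached on every array compared, 54 genes were higher, 43 returned, 10 persisted, 8 were late risers and 10 late fallers. At 1.5-fold, 359 genes were higher, 366 lower, 152 returned, 80 persisted, 111 rebounded, 96 stayed low, 134 were late risers and 94 late fallers, and at 3-fold these numbers were 5, 41, 31, 2, 0, 8, 0 and 3. Under ribosomal protein scaling the medians were -0.91 for glucocorticoid-induced genes, -0.91 for epidermis and hair, 0.080 for slow fibre genes and, with its sign reversed, 0.039 for hepatocyte markers. Without suffixed probe sets the glucocorticoid median was -1.17, and 2 medians changed sign, that of amino acid genes to -0.0090 and that of hepatocyte markers to 0.038. Averaging probe sets left 17 late fallers, leaving out 5 marker lists left 11 genes that stayed low, and with the intact baseline 9 persisted. The cause of these shifts was not tested where the setting does not itself remove genes. The median share of the 3 h increment left moved by less than 10 percentage points under all 5 of its alternatives. No paired analysis was possible because each group has 1 array. Signal near the floor limits single genes: Sstr2 and Vav1, both read by suffixed probe sets, reached a log2 ratio of 0 under an alternative.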
